A study of Mus musculus with 18 samples.

Results

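The 10 genes described here belong to the core circadian clock: Arntl, Clock and Npas2, which form its activating arm, Per1, Per2, Per3 and Cry1, which repress that arm, the nuclear receptors Nr1d1 and Nr1d2, and the output factor Dbp. They were taken by name, as known genes of the clock, from the 46725 genes in the deposited tables, with earlier results of these data known. All 10 were measured in all 18 RNA-seq libraries and passed the filter on low counts in both muscles. Each of 9 mice gave 1 library from its gastrocnemius and 1 from its quadriceps. They were 3 WT FVB animals, 3 HSA-LR animals and 3 HSA-LR animals that had received Pip6a-PMO, and their age was 20 weeks. HSA-LR mice are transgenic FVB mice that express a human skeletal actin gene with expanded CTG repeats in skeletal muscle, a model of myotonic dystrophy type 1 in which the toxic transcript is restricted to that tissue. Pip6a-PMO is an antisense oligomer directed against the CUG repeats and joined to a cell-penetrating peptide. The labels give an intravenous injection of 160 µL per mouse of Pip6a-PMO or saline, and name the agent of the WT and HSA-LR groups as untreated. The dose given to the sequenced mice and the hour at which each muscle was taken were not given in the sources used here.

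The clock of a muscle fiber is a feedback loop of transcription. ARNTL (also called BMAL1) pairs with CLOCK, or with its relative NPAS2, and the pair binds E-box sequences in the genes of its own repressors, the PER and CRY proteins, and of the receptors NR1D1 and NR1D2 (REV-ERB alpha and beta), which in turn repress Arntl. DBP is a transcription factor switched on by the same pair, and it acts on D-box sequences of further clock and output genes. In most tissues Arntl transcripts peak at the opposite phase of the day to those of Nr1d1, Dbp and the Per genes, so a single time point catches each gene at one place of its cycle. Some clock genes also answer to feeding, body temperature and glucocorticoid hormones, and Per1 and Per2 are known targets of the glucocorticoid receptor.

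Letters of known clock elements were searched in the RefSeq promoters of the mouse (GRCm38.p6, from 250 bases before to 50 bases after each start site), which held 9 of the 10 genes, all but Per2. They are shown because their letters are those of the elements that the loop is known to use, and a match here is a description of the sequence and not a measured site. Capitals mark the searched letters, read on both strands, and lower case the bases around them. The canonical E-box CACGTG was found in Cry1, 60 bases before its start, and in Per1, 166 bases before its start. The related hexamer CACGTT was found in Nr1d1 and again in Cry1, both times on the opposite strand, where it reads AACGTG. The D-box TTATGTAA occurred in Per3 at 205 and at 158 bases before the start, and the core of the REV-ERB and ROR response element, TAGGTCA, lay 31 bases after the start of Arntl.
Cry1 E-box, chr10:85185089-85185134, minus strand: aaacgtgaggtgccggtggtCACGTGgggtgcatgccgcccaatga
Per1 E-box, chr11:69098763-69098808, plus strand: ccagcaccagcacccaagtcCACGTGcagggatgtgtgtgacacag
Nr1d1 E-box variant, chr11:98775380-98775425, minus strand: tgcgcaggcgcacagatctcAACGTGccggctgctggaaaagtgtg
Per3 distal D-box, chr4:151044843-151044890, minus strand: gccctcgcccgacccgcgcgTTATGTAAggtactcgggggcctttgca
Per3 proximal D-box, chr4:151044796-151044843, minus strand: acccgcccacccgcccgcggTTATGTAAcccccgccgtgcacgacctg
Arntl response element core, chr7:113207530-113207559, plus strand: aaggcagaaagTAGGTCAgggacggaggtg
Of 32851 mouse promoters of this length, 7.15% held CACGTG, 4.68% CACGTT, 0.938% TTATGTAA and 2.61% TAGGTCA, so such a match alone sets no gene apart. The D-box variant TTACGTAA (0.119% of promoters), the variant core TGGGTCA (3.98%) and the cyclic AMP response element TGACGTCA (1.79%) were found in none of these 9 genes, which says only that those letters are not in these windows.

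The libraries held 98916844 to 143135976 counts each. Levels are given as CPM, counts relative to the library total after scaling by the TMM method. Of the muscle fiber markers Ckm, Acta1, Des, Mb, Myh1, Myh2, Myh4 and Tnnt3, none was at 0 in any group, and their summed level ran from 127374 to 222377 CPM. Markers of other cell or fiber types moved with the groups. The summed slow fiber markers reached 11782.5 CPM in 1 treated gastrocnemius, against 1478 to 4448 CPM in the WT and HSA-LR gastrocnemius. In the quadriceps they stood at 97.6 to 410.9 CPM in WT, 18.1 to 95.0 CPM in HSA-LR and 38.0 to 1586 CPM in treated mice, with 4 of 6 called higher in treated against HSA-LR mice. The 3 macrophage markers stood at 34.3 to 39.4 CPM in the HSA-LR quadriceps against 12.96 to 22.4 CPM in WT mice and 14.95 to 20.2 CPM in treated mice, and all 3 were called in both comparisons. In the gastrocnemius 1 of these 3 was called higher in HSA-LR against WT mice, and 2 were called lower in treated against HSA-LR mice. The 2 Schwann cell markers fell in the HSA-LR quadriceps (13.6 to 23.5 CPM against 37.3 to 51.2 CPM in WT mice) and rose in treated mice (26.7 to 43.1 CPM), and 2 of 3 endothelial markers fell in the HSA-LR against the WT quadriceps. The satellite cell marker Pax7 was called higher in the HSA-LR than the WT quadriceps (1.34 to 1.56 against 0.446 to 1.05 CPM). It read 1.27 to 1.66 CPM in treated mice. The fibroblast marker Col1a1 was also called higher there (205 to 226 against 147 to 166 CPM), with 167 to 236 CPM in treated mice. Of 5 adipocyte and 5 erythroid markers none was called by edgeR between groups, with up to 2 and 4 at an unadjusted P under 0.05. None of these marker genes was at 0 throughout a group. In bulk muscle, fewer cells of a type and less RNA per cell cannot be told apart. Some libraries stood apart. The 2 libraries of WT mouse 3, labelled male, had summed Y-linked transcripts of 1.14 and 1.43 CPM against 134 to 188 CPM in the other 16, which include both libraries of WT mouse 2, labelled female. The gastrocnemius of treated mouse 3 had less coverage at 5′ than at 3′ ends of transcripts, with a median log2 ratio of -1.69 against -1.41 to -1.30 in the other libraries.

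Per kilobase of exon, the clock genes spanned a wide range of levels. Lengths were those of all annotated exons together, noncoding ones included, so a gene with long noncoding exons has a lower value. Nr1d2 had 10 bins in the deposited counts against 14 in the annotation used for its length, so its value is less certain. The order of the median level over 18 libraries was Dbp (36.4 CPM per kb), Nr1d1 (33.4), Per1 (24.6), Nr1d2 (17.7), Cry1 (5.95), Per2 (5.27), Per3 (2.39), Arntl (1.30), Clock (1.09) and Npas2 (0.0739). Neighbours in the upper part of this order were not separated beyond their spread, as Dbp ran from 25.9 to 54.9 CPM per kb, Nr1d1 from 17.2 to 64.5, Per1 from 16.3 to 44.4 and Nr1d2 from 15.6 to 20.7. Cry1 (4.58 to 7.004) overlapped Per2 (3.63 to 8.05), and Arntl (0.904 to 1.91) overlapped Clock (0.763 to 1.35). Per3, at 2.08 to 2.95 CPM per kb, lay below every value of Per2 and above every value of Arntl. Npas2 rested on 17 to 82 counts per library, whereas every other member had at least 661.

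**Figure D1:**
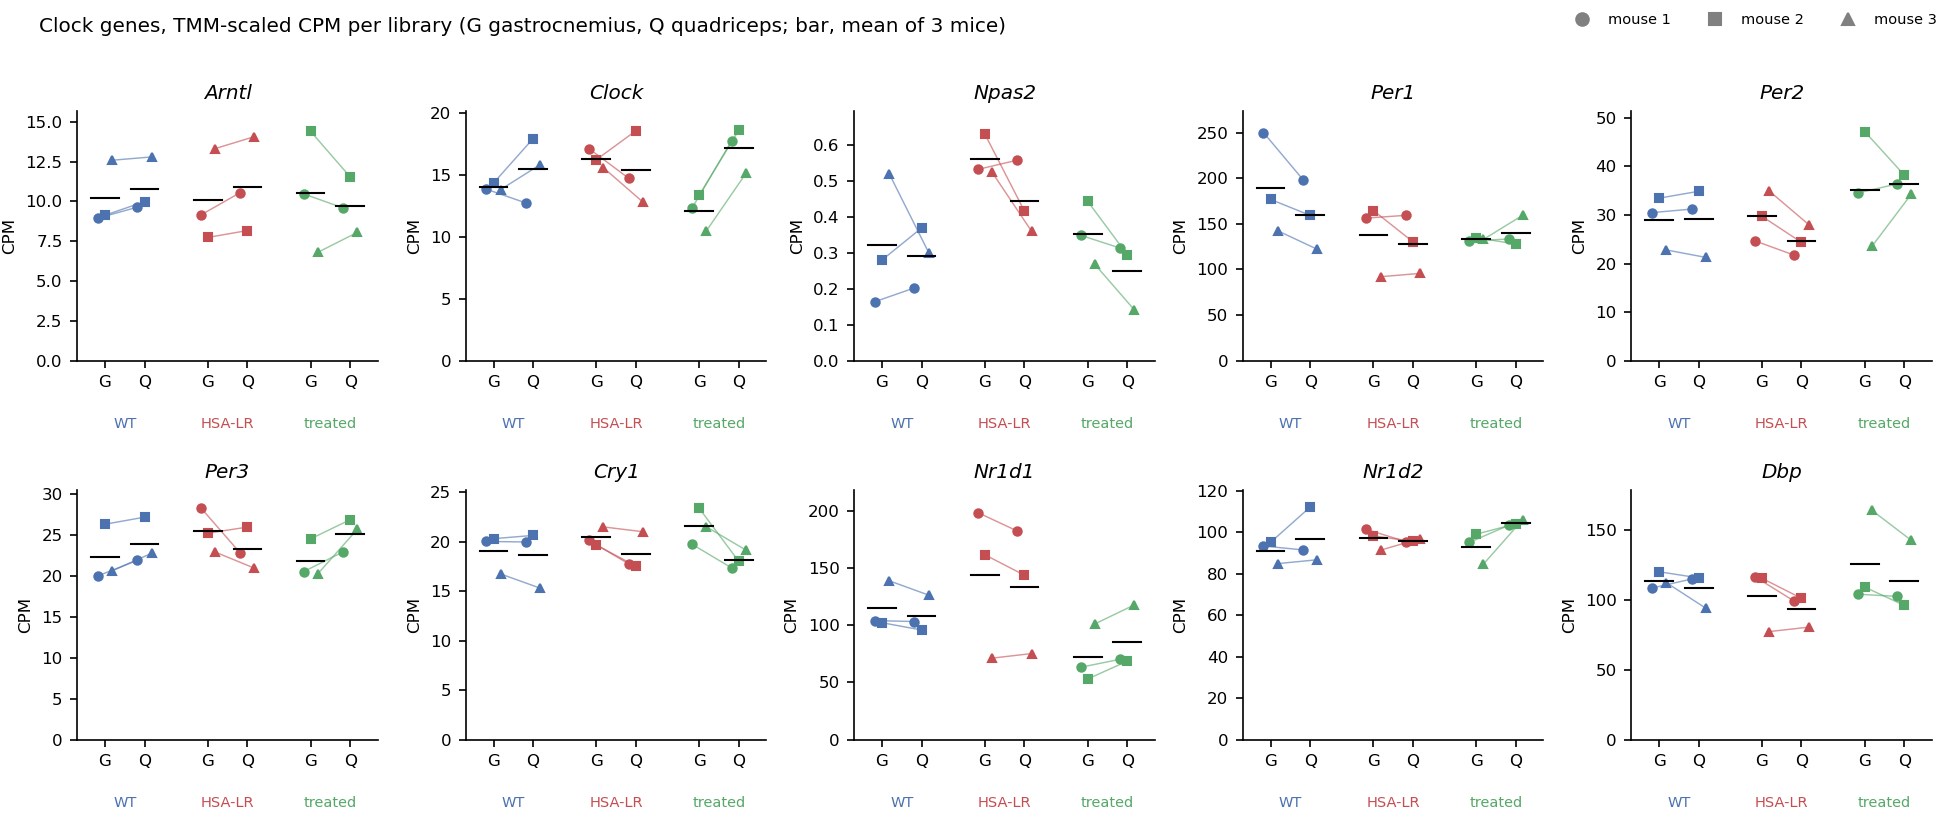
TMM-scaled CPM (vertical axis, from 0) of the 10 clock genes for gastrocnemius (G) and quadriceps (Q), by group. Symbols mark mice 1 to 3 of each group, lines join the muscles of a mouse, and bars are means of 3 mice; the Nr1d1 panel shows HSA-LR mouse 3 at 71.3 and 75.3 CPM, far under the other HSA-LR mice in both muscles.

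In the activating arm no difference between HSA-LR and WT mice passed the test in either muscle. Arntl (ENSMUSG00000055116, chr7:113207465-113314126, plus strand) stood in the gastrocnemius at 8.95, 9.14 and 12.6 CPM in WT mice 1 to 3, at 9.15, 7.74 and 13.3 CPM in HSA-LR mice and at 10.5, 14.4 and 6.80 CPM in treated mice. In the quadriceps the values were 9.64, 9.99 and 12.8 CPM in WT, 10.6, 8.18 and 14.1 CPM in HSA-LR and 9.60, 11.5 and 8.06 CPM in treated mice. The same mice stood high in both muscles, namely WT mouse 3, HSA-LR mouse 3 and treated mouse 2, and the groups overlapped in every comparison. The log2 FC of HSA-LR against WT mice was -0.03 (SE 0.28, adjusted P = 0.956) in the gastrocnemius and 0.02 (SE 0.21, adjusted P = 0.97) in the quadriceps, and that of treated against HSA-LR mice was 0.08 (SE 0.28) and -0.16 (SE 0.21).

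Clock (ENSMUSG00000029238, chr5:76209868-76304792, minus strand), the partner of ARNTL, was the 1 member that passed the test in the gastrocnemius. It stood there at 13.8, 14.3 and 13.8 CPM in WT mice, at 17.1, 16.2 and 15.6 CPM in HSA-LR mice and at 12.3, 13.3 and 10.5 CPM in treated mice. Treated mice lay below HSA-LR mice without overlap, and Clock fell by 0.43 on the log2 scale (SE 0.10, adjusted P = 0.0458). Against WT mice, HSA-LR mice were higher by 0.21 (SE 0.10, adjusted P = 0.241) and treated mice lower by a log2 FC of -0.22 (SE 0.10, adjusted P = 0.499), neither of which passed. Cell and fiber markers differed between the same treated and HSA-LR gastrocnemius groups. Of 3 macrophage markers 2 were called lower in treated mice, and of 8 muscle fiber markers 3 were called higher and 2 lower, against 10% of all genes. Their part in the Clock result was not tested. In the quadriceps Clock read 12.7, 17.9 and 15.8 CPM in WT, 14.7, 18.6 and 12.8 CPM in HSA-LR and 17.7, 18.6 and 15.1 CPM in treated mice, with a log2 FC of treated against HSA-LR mice of 0.16 (SE 0.17, adjusted P = 0.566). The difference of the treatment effect between the muscles was 0.59 (SE 0.20, adjusted P = 0.630 by edgeR), so a difference between the muscles was not shown. The gastrocnemius call was lost without HSA-LR mouse 1 (adjusted P = 0.165) or HSA-LR mouse 2 (adjusted P = 0.142), and when the gene's largest exon bin replaced the sum of its bins, where the log2 FC was -0.19 (adjusted P = 0.238). Without treated mouse 3, whose library had the lower 5′ coverage, the log2 FC was -0.35 (adjusted P = 0.0501).

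Npas2 (ENSMUSG00000026077, chr1:39193731-39363236, plus strand), which can stand in for CLOCK, was the weakest of the 10. In the gastrocnemius it read 0.164, 0.280 and 0.519 CPM in WT, 0.531, 0.629 and 0.524 CPM in HSA-LR and 0.348, 0.443 and 0.268 CPM in treated mice. In the quadriceps it read 0.202, 0.369 and 0.300 CPM in WT, 0.557, 0.416 and 0.360 CPM in HSA-LR and 0.313, 0.295 and 0.141 CPM in treated mice. HSA-LR mice lay above WT mice in the gastrocnemius and above treated mice in both muscles, yet none of these differences passed the test. The log2 FC of HSA-LR against WT mice was 0.79 (SE 0.38, adjusted P = 0.237) in the gastrocnemius and 0.61 (SE 0.36, adjusted P = 0.310) in the quadriceps, and that of treated against HSA-LR mice was -0.65 (SE 0.38, adjusted P = 0.348) and -0.82 (SE 0.36, adjusted P = 0.187). Without WT mouse 3, whose gastrocnemius library was the highest of its group, Npas2 was called in the gastrocnemius with a log2 FC of 1.31 (adjusted P = 0.0459).

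Per1 (ENSMUSG00000020893, chr11:69095217-69109960, plus strand) was the most abundant repressor and had its highest value in WT mouse 1. It read 250.04, 177 and 142 CPM in the WT gastrocnemius, 156, 165 and 92.0 CPM in HSA-LR and 131, 135 and 133 CPM in treated mice. The quadriceps gave 198, 159 and 122 CPM in WT, 159, 130.3 and 95.7 CPM in HSA-LR and 133, 128 and 159.5 CPM in treated mice. WT and HSA-LR mice overlapped in both muscles, with WT mouse 3 and HSA-LR mouse 3 the lowest of their groups. The log2 FC of HSA-LR against WT mice was -0.48 (SE 0.24, adjusted P = 0.254) in the gastrocnemius and -0.32 (SE 0.21, adjusted P = 0.372) in the quadriceps, and that of treated against HSA-LR mice was -0.04 (SE 0.24) and 0.13 (SE 0.21).

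Per2 (ENSMUSG00000055866, chr1:91415982-91459324, minus strand) was the 1 member that passed the test in the quadriceps. There it read 31.2, 34.9 and 21.3 CPM in WT, 21.7, 24.3 and 28.0 CPM in HSA-LR and 36.4, 38.2 and 34.3 CPM in treated mice. Every treated mouse lay above every HSA-LR mouse, and Per2 rose by 0.56 on the log2 scale (SE 0.17, adjusted P = 0.0824), a 1.47-fold change, while the difference from WT mice was 0.33 (SE 0.17, adjusted P = 0.468). In the gastrocnemius Per2 read 30.5, 33.4 and 22.8 CPM in WT, 24.7, 29.7 and 34.9 CPM in HSA-LR and 34.5, 47.1 and 23.5 CPM in treated mice. Those groups overlapped, with a log2 FC of treated against HSA-LR mice of 0.24 (SE 0.24, adjusted P = 0.594). Muscle fiber, slow fiber, macrophage and Schwann cell markers differed between the same quadriceps groups, and their part in this result was not tested. The quadriceps call was lost without HSA-LR mouse 1 (adjusted P = 0.240), HSA-LR mouse 2 (adjusted P = 0.204), treated mouse 1 (adjusted P = 0.189), treated mouse 2 (adjusted P = 0.196) or treated mouse 3 (adjusted P = 0.126), with the replicate number as a block (0.55, adjusted P = 0.120), and with each library's 5′ to 3′ coverage as a covariate (0.45, adjusted P = 0.337). Without WT mouse 3, Per2 was called lower in the quadriceps of HSA-LR against WT mice, by a log2 FC of -0.41 (adjusted P = 0.0747), against -0.23 (SE 0.17, adjusted P = 0.426) with all mice.

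Per3 and Cry1 stayed in a narrow band. Per3 (ENSMUSG00000028957, chr4:151003652-151044665, minus strand) ran from 20.0 to 28.4 CPM over the 18 libraries, and Cry1 (ENSMUSG00000020038, chr10:85131700-85185064, minus strand), a strong repressor of the activating pair, from 15.3 to 23.4 CPM. The log2 FC of Per3 between HSA-LR and WT mice was 0.18 (SE 0.13) in the gastrocnemius and -0.04 (SE 0.12) in the quadriceps. Cry1 differed by 0.09 (SE 0.10) and 0.01 (SE 0.13). Treated against HSA-LR mice gave -0.22 (SE 0.13) and 0.12 (SE 0.12) for Per3, and 0.08 (SE 0.10) and -0.04 (SE 0.13) for Cry1. None of these passed the test.

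The receptor Nr1d1 (ENSMUSG00000020889, chr11:98767932-98775333, minus strand) had the widest range over the libraries after Npas2, 3.75-fold from the lowest to the highest. In the gastrocnemius it read 104, 102 and 139 CPM in WT mice 1 to 3, 198.6, 162 and 71.3 CPM in HSA-LR mice and 63.3, 53.0 and 101 CPM in treated mice. In the quadriceps it read 103, 95.9 and 126 CPM in WT, 182, 144 and 75.3 CPM in HSA-LR and 70.3, 68.6 and 118 CPM in treated mice. HSA-LR mice 1 and 2 were above every WT and treated library in both muscles, HSA-LR mouse 3 was below every WT library, and treated mouse 3 stood apart above the other treated mice. Treated against HSA-LR mice gave a log2 FC of -0.98 (SE 0.35, adjusted P = 0.145) in the gastrocnemius and -0.64 (SE 0.31, adjusted P = 0.231) in the quadriceps, and HSA-LR against WT mice gave 0.31 (SE 0.35) and 0.30 (SE 0.31). The call depended on the method and on single mice. With all mice, Nr1d1 was called lower in the treated gastrocnemius by DESeq2 (-0.97, adjusted P = 0.0370), with the coverage covariate (-1.39, adjusted P = 0.0839) and from its largest exon bin (-1.18, adjusted P = 0.0769). Without HSA-LR mouse 3, Nr1d1 was called lower in treated mice in the gastrocnemius (-1.30, adjusted P = 0.0494) and the quadriceps (-0.92, adjusted P = 0.0562), and without treated mouse 3 in the gastrocnemius (-1.31, adjusted P = 0.0956). Without HSA-LR mouse 1 the values were -0.68 (adjusted P = 0.404) and -0.35 (adjusted P = 0.578).

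Nr1d2 (ENSMUSG00000021775, chr14:18204054-18239127, minus strand), the other REV-ERB receptor, had the narrowest range of the 10. It ran from 84.6 to 112 CPM over all libraries, a 1.33-fold range. Its log2 FC was 0.08 (SE 0.09) and -0.01 (SE 0.10) for HSA-LR against WT mice and -0.05 (SE 0.09) and 0.13 (SE 0.10) for treated against HSA-LR mice, in the gastrocnemius and quadriceps, and none passed the test. The exons of Nr1d1 overlap those of Thra on the opposite strand over 263 bases, and those of Dbp overlap Sphk2 over 539 bases. Strands were checked over all genes, in 114 pairs of a densely counted bin and a bin inside it on the other strand. A median of 0.646% of the counts per base lay on that other strand. The overlaps of Nr1d1 and Dbp were not checked on their own.

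Dbp (ENSMUSG00000059824, chr7:45705088-45710203, plus strand), the output factor, was the most abundant member per length. It read 109, 120.4 and 113 CPM in the WT gastrocnemius, 117, 116 and 77.5 CPM in HSA-LR and 104, 109 and 164 CPM in treated mice. The quadriceps gave 115, 116 and 94.2 CPM in WT, 99.2, 101 and 80.6 CPM in HSA-LR and 103, 96.2 and 143 CPM in treated mice. HSA-LR mouse 3 was the lowest and treated mouse 3 the highest of all mice in both muscles. The log2 FC of treated against HSA-LR mice was 0.29 (SE 0.20, adjusted P = 0.417) and 0.29 (SE 0.16, adjusted P = 0.292), and that of HSA-LR against WT mice -0.15 (SE 0.20) and -0.21 (SE 0.16). Over the 18 libraries, centred within each muscle, Dbp and Arntl moved in opposite directions with r = -0.745 (rho = -0.684), a description over libraries that come in pairs from 9 mice.

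Counted together, 2 calls were made among the 10 clock genes over the 6 group comparisons. A gene was called at an adjusted P under 0.1 by edgeR. In HSA-LR against WT mice, 0 of 10 clock genes were called in the gastrocnemius, where 15.5% of the 15625 genes tested were called, and 0 of 10 in the quadriceps, where 20.3% of 15574 were. By DESeq2 and by limma voom the count was also 0 in both muscles, and 0 of 10 had an unadjusted P under 0.05, against 25.1% and 28.1% of all genes. Treated against HSA-LR mice gave 1 of 10 in each muscle, Clock and Per2, against 10% and 13.8% of all genes. At an unadjusted P under 0.05 there were 2 in each muscle, against 21.9% and 26.3% of all genes, namely Clock and Nr1d1 in the gastrocnemius and Npas2 and Per2 in the quadriceps. Treated against WT mice gave 0 of 10 in each muscle, against 1.04% and 1.41%, again with 0 at an unadjusted P under 0.05, against 10.5% and 12.5%, and 0 by DESeq2 and limma voom. Groups without overlap were found for 2 (Clock and Npas2) and 0 clock genes in HSA-LR against WT mice, against 36.2% and 33.2% of all genes in the gastrocnemius and quadriceps. In treated against HSA-LR mice they were found for 2 (Clock and Npas2) and 3 (Npas2, Per2 and Nr1d2), against 29.3% and 31.9%. In treated against WT mice they were found for 3 (Clock, Per1 and Nr1d1) and 0, against 14.3% and 18.3%. The median log2 FC of the 10 genes was 0.09 and -0.01 for HSA-LR against WT mice and -0.05 and 0.12 for treated against HSA-LR mice, beside medians of all genes within 0.02 of 0.

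**Figure D2:**
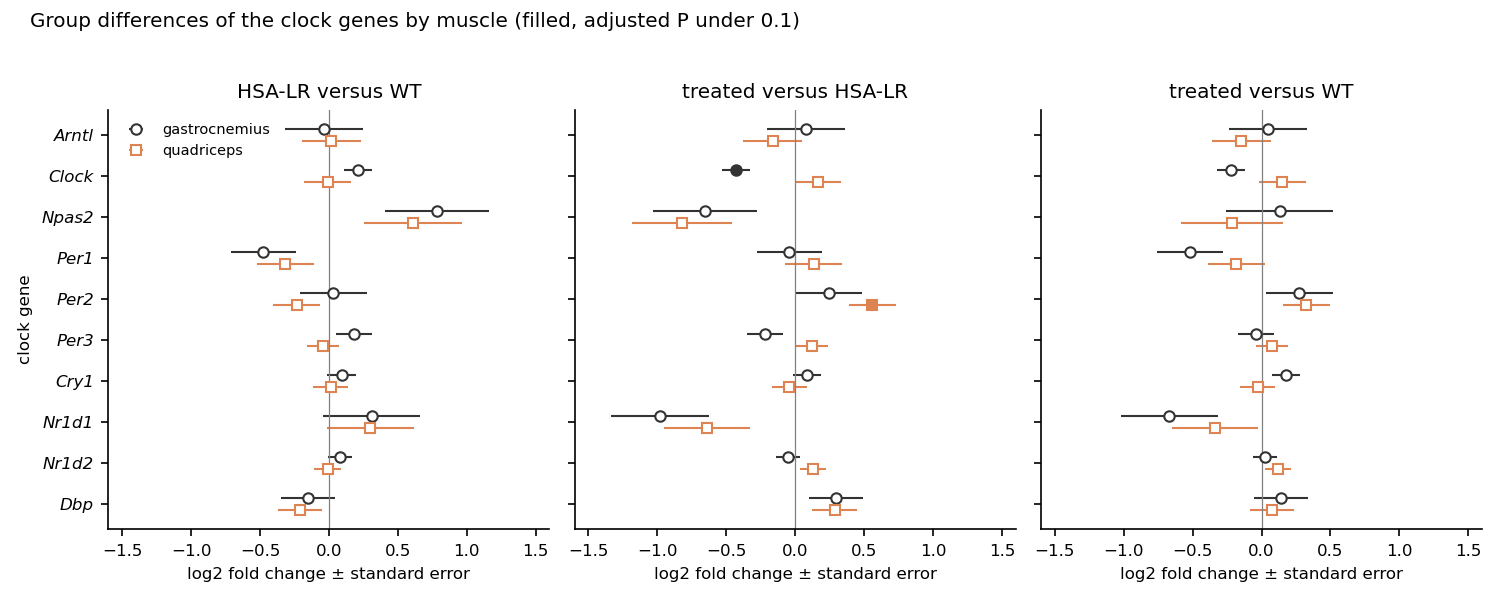
Log2 fold changes (horizontal axis, with SE as bars) of the 10 clock genes in 3 comparisons, with circles for the gastrocnemius and squares for the quadriceps and filled symbols for an adjusted P under 0.1. Only Clock in the gastrocnemius (-0.43) and Per2 in the quadriceps (0.56), both for treated against HSA-LR mice, are filled.

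Between the muscles the log2 differences of the clock genes were small. Averaged over the 3 groups, 0 of 10 were called by edgeR when quadriceps and gastrocnemius were compared as separate samples, against 13.3% of 16167 genes, and 1 had an unadjusted P under 0.05 (Clock). With the mouse as a block, which the shared mouse of both muscles allows, 2 of 10 were called, against 21.1% of all genes. Clock was higher in the quadriceps by 0.18 (adjusted P = 0.0825) and Cry1 lower, at a log2 difference of -0.14 (adjusted P = 0.0537). The other 8 had log2 differences between -0.33 (Npas2, SE 0.22) and 0.08 (Nr1d2, SE 0.05) without the block. No clock gene, and with edgeR none of all 16167 genes (0.00%), showed a different effect of HSA-LR or of treatment between the muscles, while 710 and 1271 genes had an unadjusted P under 0.05 in these tests, Clock among the latter. With the mouse as a block, 5 of all genes (0.0309%) differed between the muscles in the HSA-LR effect and 0 in the treatment effect, and again no clock gene.

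For some clock genes, above all Nr1d1 and Arntl, a mouse stood high or low alike in both of its muscles. For each gene, the deviation of a library from its group mean was compared between the gastrocnemius and the quadriceps over 9 mice. The correlation was highest for Nr1d1 (r = 0.989, rho = 0.967), followed by Arntl (r = 0.938), Per1 (0.879), Dbp (0.866), Cry1 (0.829), Per2 (0.720), Per3 (0.714), Npas2 (0.531), Clock (0.504) and Nr1d2 (0.314). Nr1d1 deviated to the same side in both muscles in 9 of 9 mice, and Arntl, Per2, Cry1 and Dbp in 8 of 9. Clock, Npas2, Per1 and Per3 did so in 6 of 9 mice and Nr1d2 in 2 of 9. These counts of sides were not calculated over all genes. The median r of the 10 genes was 0.775 against 0.364 over the 15264 genes tested in both muscles, all 10 were positive against 77.2%, and 5 of 10 exceeded 0.8, against 8.30%. In exact two-sided permutation tests over the 216 reassignments of quadriceps libraries within groups, 5 clock genes had a positive r and an unadjusted P under 0.05 (Arntl, Per1, Per2, Cry1 and Nr1d1), against 9% of all genes. Arntl, Per2 and Nr1d1 reached the smallest P these permutations can give, 0.00463. After adjustment over all genes none passed, as the smallest adjusted P was 0.439 by this exact test. Without the 2 mice farthest from the median of the gastrocnemius deviations, r was 0.973 for Nr1d1, 0.901 for Arntl, 0.758 for Per1, 0.723 for Dbp, 0.645 for Cry1, 0.599 for Npas2, 0.426 for Per3, 0.418 for Clock and 0.135 for Nr1d2. For Per2 it went up to 0.964.

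**Figure D3:**
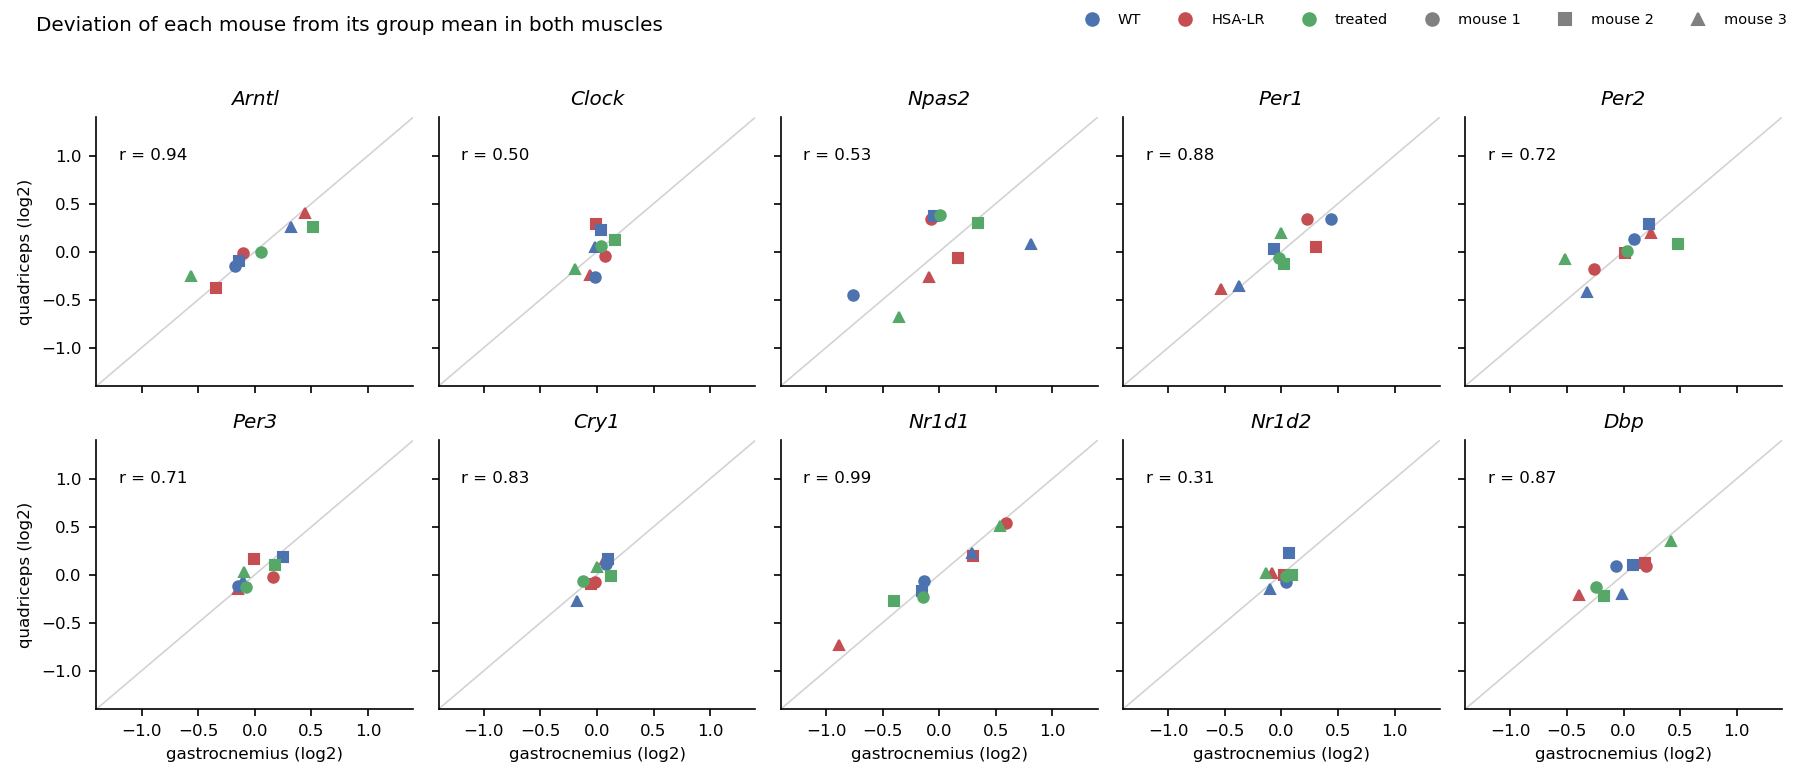
Deviation of each mouse from its group mean (log2 CPM) in the gastrocnemius (horizontal axis) and the quadriceps (vertical axis) for the 10 clock genes, with color for the group, a symbol for the mouse and the line of equality in grey. Nr1d1 (r = 0.99) and Arntl (r = 0.94) lie along the line, and HSA-LR mouse 3 is the lowest point of Nr1d1.

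Several clock genes deviated in the same mice, though Per2 and Cry1 did not keep 1 side relative to Arntl. HSA-LR mouse 3 was above its group for Arntl (0.44 and 0.40 log2 in the gastrocnemius and quadriceps) and below it for Nr1d1 (-0.89 and -0.74), Dbp (-0.39 and -0.21) and Per1 (-0.53 and -0.39). Its Per2 (0.25 and 0.19) and Cry1 (0.07 and 0.17) were above its group, like its Arntl. Treated mouse 3 deviated the other way for Arntl (-0.57 and -0.26), Nr1d1 (0.54 and 0.51) and Dbp (0.42 and 0.35), whereas its Per1 was at its group mean in the gastrocnemius (131, 135 and 133 CPM in the 3 treated mice) and at 0.19 in the quadriceps. Its Per2 was below its group, like its Arntl (-0.52 and -0.08), and its Cry1 stood at 0.001 and 0.08. WT mouse 3 was above its group for Arntl (0.32 and 0.26) and below for Per1 (-0.37 and -0.36), Per2 (-0.32 and -0.42) and Cry1 (-0.18 and -0.27), but above it for Nr1d1 (0.29 and 0.23). Its Dbp stood at -0.02 and -0.20. The spread between mice within a group, taken from the mean of both muscles, had a median SD over the 10 genes of 0.267 log2 against 0.170 over all genes, while the SD of the difference between the muscles, divided by 2, was 0.0792 against 0.114. Both muscles of a mouse share its sex, its hour of sampling, its feeding and its handling, and these cannot be told apart from each other with 3 mice per group. WT mouse 3 was the mouse with nearly no Y-linked transcripts (1.14 and 1.43 CPM), and the part of sex in its deviations was not tested. For a gene that differs between mice in both muscles, the hour of sampling cannot be told apart from the group either, as no hour was given in the sources used here.

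Genes called between HSA-LR and WT mice were found in the wider clock network. Of 19 further genes of the loop, all were tested, and 2 fell in HSA-LR against WT mice in the gastrocnemius, against 15.5% called in all. In the quadriceps 4 fell and 1 rose, against 20.3%. In treated against HSA-LR mice 2 rose in each muscle, against 10% and 13.8% of all genes called. In treated against WT mice 0 were called by edgeR, against 1.04% and 1.41%, with 1 at an unadjusted P under 0.05 in each muscle. The median log2 FC of the 19 was -0.15 and -0.09 for HSA-LR against WT mice and 0.06 and 0.16 for treated against HSA-LR mice.

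Arntl2, the paralog of Arntl, gave the largest difference among them. It read 1.12, 1.09 and 1.31 CPM in the WT gastrocnemius, 0.0770, 0.0537 and 0.101 CPM in HSA-LR mice and 0.417, 0.893 and 0.556 CPM in treated mice. In the quadriceps it read 0.756, 1.33 and 0.900 CPM in WT, 0.0557, 0.322 and 0.117 CPM in HSA-LR and 0.545, 0.783 and 0.506 CPM in treated mice. No HSA-LR library reached any WT or treated library, although the HSA-LR values rested on 7 to 12 counts in the gastrocnemius and 6 to 45 in the quadriceps. Arntl2 fell by 3.93 on the log2 scale (SE 0.35, adjusted P = 0.000340) in the gastrocnemius and by 2.54 (SE 0.53, adjusted P = 0.0146) in the quadriceps of HSA-LR against WT mice, and rose in treated mice by 3.01 (SE 0.36, adjusted P = 0.00346) and 1.85 (SE 0.52, adjusted P = 0.0683). The first 3 calls held under all 17 alternatives each and the fourth under 10, being lost with the coverage covariate (1.21, adjusted P = 0.179), with the largest exon bin (adjusted P = 0.107) and without HSA-LR mouse 1 (adjusted P = 0.152), HSA-LR mouse 3 (adjusted P = 0.120), treated mouse 1 (adjusted P = 0.142), treated mouse 2 (adjusted P = 0.175) or treated mouse 3 (adjusted P = 0.103). Its deviations did not run together in the muscles of a mouse (r = -0.168).

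Nfil3 (E4BP4), which competes with DBP for D-boxes, also differed by group. It read 27.6, 18.8 and 29.4 CPM in the WT gastrocnemius, 9.79, 10.1 and 13.3 CPM in HSA-LR and 20.0, 21.3 and 15.5 CPM in treated mice. The quadriceps gave 24.8, 17.7 and 36.0 CPM in WT, 11.5, 9.65 and 17.7 CPM in HSA-LR and 22.5, 19.8 and 19.5 CPM in treated mice. Nfil3 fell by 1.20 (SE 0.20, adjusted P = 0.00618) and by 1.01 (SE 0.28, adjusted P = 0.0430) on the log2 scale in HSA-LR against WT mice and rose by 0.78 (SE 0.20, adjusted P = 0.0546) in the treated gastrocnemius. In the treated quadriceps its log2 FC of 0.67 (SE 0.28, adjusted P = 0.164) did not pass. The quadriceps call of HSA-LR against WT mice was lost without WT mouse 3 (adjusted P = 0.123), HSA-LR mouse 1 (adjusted P = 0.128) or HSA-LR mouse 2 (adjusted P = 0.125), and the treated gastrocnemius call with the replicate block (adjusted P = 0.103) and without HSA-LR mouse 1 (adjusted P = 0.183), HSA-LR mouse 2 (adjusted P = 0.182), treated mouse 1 (adjusted P = 0.107) or treated mouse 2 (adjusted P = 0.135).

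**Figure D4:**
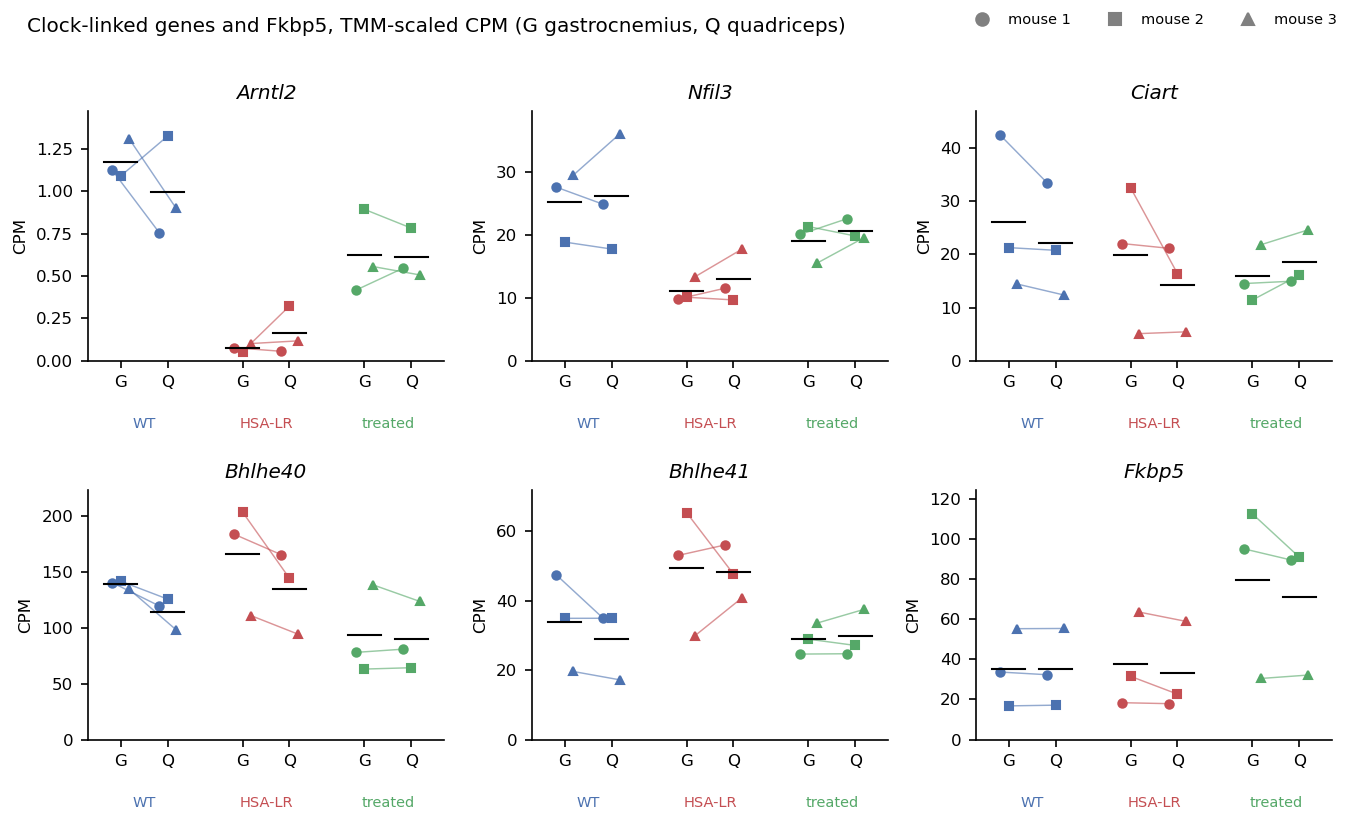
TMM-scaled CPM (vertical axis, from 0) of 5 genes of the clock network and of the glucocorticoid target Fkbp5 in the gastrocnemius (G) and quadriceps (Q), with symbols for mice 1 to 3, lines joining the muscles of a mouse and bars for means of 3 mice. Arntl2 is at 0.322 CPM or below in every HSA-LR library, while the groups of Ciart, Bhlhe40 and Fkbp5 overlap, with HSA-LR mouse 3 lowest for Ciart in both muscles (5.10 and 5.44 CPM).

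Further calls of network genes were made in the quadriceps. Csnk1d, a kinase that marks PER proteins for decay, fell by 0.24 (SE 0.08, adjusted P = 0.0730) in HSA-LR against WT mice and rose by 0.41 (SE 0.08, adjusted P = 0.0199) in treated mice, and the rise held in 16 of 17 alternatives. The fall held in 9, being lost with the replicate block (adjusted P = 0.121), with the coverage covariate (adjusted P = 0.116) and without any 1 of WT mice 1 to 3, HSA-LR mice 1 and 2 or treated mouse 1 (adjusted P = 0.102 to 0.197). The exception to the rise was the coverage covariate (adjusted P = 0.112). In the gastrocnemius its log2 FC was -0.27 (SE 0.11, adjusted P = 0.155) and 0.33 (SE 0.11, adjusted P = 0.114). Timeless fell by 0.79 (SE 0.25, adjusted P = 0.0710) and Rorb, a receptor at 0.0693 to 0.343 CPM, rose by 0.84 (SE 0.29, adjusted P = 0.0876) in HSA-LR against WT mice. The call of Timeless was lost without WT mouse 3 (-0.43, adjusted P = 0.177), HSA-LR mouse 1 (adjusted P = 0.192), HSA-LR mouse 2 (adjusted P = 0.128) or treated mouse 1 (adjusted P = 0.106), and with the 2 groups alone (adjusted P = 0.126), the coverage covariate (adjusted P = 0.114) or the largest exon bin (adjusted P = 0.106). That of Rorb held in 2 of 17 alternatives and in none that left out a mouse (adjusted P = 0.107 to 0.294). No difference between the muscles in these effects passed the test. Ciart, a repressor of the activating pair, Bhlhe40 and Hlf, a relative of DBP, were not called in any group comparison, yet their mice deviated together in both muscles, with r of 0.934, 0.939 and 0.958. These were the highest r of the 19 network genes, picked after the values were seen, and 8.30% of all genes exceeded 0.8. Other network genes agreed less or not at all, with r of 0.307 for Tef and -0.632 for Fbxw11. HSA-LR mouse 3 had the lowest Ciart of all mice, 5.10 and 5.44 CPM, against 22.1 and 32.6 CPM in the gastrocnemius of the other HSA-LR mice.

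Genes known to lie downstream of the clock were also measured. Of 8 output genes, 1 rose and 1 fell in each muscle of HSA-LR against WT mice, against 15.5% and 20.3% of all genes called in either direction. In treated against HSA-LR mice 1 rose in the gastrocnemius and 2 in the quadriceps, against 10% and 13.8%. Myod1, the myogenic factor under clock control, rose by 0.78 (SE 0.19, adjusted P = 0.0330) and 0.87 (SE 0.23, adjusted P = 0.0382), and both calls were lost without HSA-LR mouse 2 (adjusted P = 0.125 and 0.122). Usp2, a deubiquitinase, fell by 0.45 (SE 0.13, adjusted P = 0.0599) and by 0.41 (SE 0.08, adjusted P = 0.0143) and rose by 0.45 (SE 0.08, adjusted P = 0.0198) in the treated quadriceps. The gastrocnemius call of Usp2 was lost in 6 of 17 alternatives, without WT mouse 1 (adjusted P = 0.149), WT mouse 3 (adjusted P = 0.143), HSA-LR mouse 1 (adjusted P = 0.134), HSA-LR mouse 2 (adjusted P = 0.120) or HSA-LR mouse 3 (adjusted P = 0.189) and with the replicate block (adjusted P = 0.111), and both quadriceps calls held in all 17. Tcap, a sarcomere protein, rose in treated against HSA-LR mice by 0.45 (SE 0.13, adjusted P = 0.0782) and 0.47 (SE 0.09, adjusted P = 0.0205), the latter in all 17 alternatives and the former in 7. The former was lost without any 1 of WT mouse 2, HSA-LR mice 1 to 3 or treated mice 2 and 3 (adjusted P = 0.106 to 0.231), and with the 2 groups alone (adjusted P = 0.102), the coverage covariate (adjusted P = 0.177), the largest exon bin (adjusted P = 0.110) or the replicate block (adjusted P = 0.167). Wee1, Nampt, Por, Alas1 and Pdk4 were not called.

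Glucocorticoid-responsive genes, some of which respond through the hormone rather than the clock, were listed because the hormone itself cycles. Of 9 genes, 2 fell in the gastrocnemius and 3 in the quadriceps of HSA-LR against WT mice, against 15.5% and 20.3% of all genes called. In treated against HSA-LR mice 1 rose and 1 fell in the gastrocnemius and 2 rose in the quadriceps, against 10% and 13.8%. Klf15, a factor of amino acid use, fell by 0.45 (SE 0.12, adjusted P = 0.0418) and 0.76 (SE 0.11, adjusted P = 0.00367) and rose by 0.47 (SE 0.11, adjusted P = 0.0438) in the treated quadriceps. Its quadriceps fall held in all 17 alternatives, while the gastrocnemius fall was lost without WT mouse 1 (adjusted P = 0.103), HSA-LR mouse 1 (adjusted P = 0.130) or HSA-LR mouse 2 (adjusted P = 0.131), and the rise without HSA-LR mouse 1 (adjusted P = 0.108), HSA-LR mouse 2 (adjusted P = 0.134), treated mouse 1 (adjusted P = 0.129) or treated mouse 3 (adjusted P = 0.103). Sgk1 fell by 0.28 (SE 0.09, adjusted P = 0.0837) and 0.40 (SE 0.13, adjusted P = 0.0781), each in 10 of 17 alternatives. In the gastrocnemius the losses came without any 1 of WT mice 1 and 2 or HSA-LR mice 1 to 3 (adjusted P = 0.173 to 0.232), with a minimum count of 1 (adjusted P = 0.108) and with the replicate block (adjusted P = 0.145). In the quadriceps they came without any 1 of WT mouse 2, HSA-LR mice 1 to 3 or treated mouse 1 (adjusted P = 0.102 to 0.171), with the 2 groups alone (adjusted P = 0.126) and with upper-quartile scaling (adjusted P = 0.104). Ddit4 (REDD1) fell in the quadriceps by 1.42 (SE 0.40, adjusted P = 0.0476), which was lost without WT mouse 1 (adjusted P = 0.131), WT mouse 2 (adjusted P = 0.110), HSA-LR mouse 1 (adjusted P = 0.123) or HSA-LR mouse 3 (adjusted P = 0.127). Tsc22d3 (GILZ) rose in treated against HSA-LR mice by 0.74 (SE 0.21, adjusted P = 0.0759) and 0.66 (SE 0.18, adjusted P = 0.0590), in 11 and 12 alternatives, with losses in both muscles without HSA-LR mouse 1 or 2 or treated mouse 1 or 2 (adjusted P = 0.114 to 0.224). The gastrocnemius rise was also lost with the largest exon bin (adjusted P = 0.131) and the replicate block (adjusted P = 0.146), and the quadriceps rise with the coverage covariate (adjusted P = 0.230). Cdkn1a, a cell cycle inhibitor, fell by 0.67 (SE 0.20, adjusted P = 0.0848) in the gastrocnemius, in 9 alternatives, and this was lost without any 1 of WT mouse 1, the HSA-LR mice or the treated mice (adjusted P = 0.109 to 0.207) and with the coverage covariate (adjusted P = 0.135).

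Fkbp5, a direct and sensitive target of the glucocorticoid receptor, was not called but separated single mice. It read 33.6, 16.8 and 55.2 CPM in the WT gastrocnemius, 18.4, 31.5 and 63.5 CPM in HSA-LR and 95.0, 112 and 30.4 CPM in treated mice. In the quadriceps it read 32.3, 17.2 and 55.4 CPM in WT, 17.9, 22.7 and 58.9 CPM in HSA-LR and 89.5, 90.9 and 32.1 CPM in treated mice. The deviations agreed between the muscles with r = 0.983, and those of Zbtb16, another target, with r = 0.988, each in 9 of 9 mice to the same side. HSA-LR mouse 3 and treated mouse 3, which stood apart for Nr1d1 and Arntl, were the highest and the lowest of their groups for Fkbp5 in both muscles. WT mouse 3 was also the highest of its group for Fkbp5, with deviations of 0.81 and 0.82 log2. Its Arntl was above its group, as in HSA-LR mouse 3, but its Nr1d1 was above its group too (0.29 and 0.23), unlike in HSA-LR mouse 3. The rest of the list did not all follow Fkbp5, and r ran down to -0.084 (Sgk1). Ddit4 also agreed between the muscles (r = 0.939). HSA-LR mouse 3 (19.7 and 15.2 CPM) and WT mouse 3 (27.8 and 30.6 CPM) were the lowest of their groups for Ddit4, the reverse of Fkbp5. Treated mouse 3 (31.7 and 22.3 CPM) was the lowest of its group for both genes. The log2 FC of Fkbp5 in treated against HSA-LR mice was 1.08 (SE 0.59, adjusted P = 0.321) and 1.10 (SE 0.58, adjusted P = 0.263). The part of glucocorticoid levels in the differences between mice was not tested.

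Of 7 temperature-responsive genes 6 were measured, Cirbp, Rbm3, Hspa1a, Hspa1b, Hsph1 and Dnajb1, and Hspa8 was not analysed here. The chaperone Hsph1 rose by 0.64 (SE 0.18, adjusted P = 0.0682) in the treated against the HSA-LR quadriceps, and this was lost without HSA-LR mouse 1 (adjusted P = 0.185), HSA-LR mouse 2 (adjusted P = 0.195), treated mouse 1 (adjusted P = 0.128), treated mouse 2 (adjusted P = 0.170) or treated mouse 3 (adjusted P = 0.130), and with the coverage covariate (0.76, adjusted P = 0.169). This 1 call among 6 genes stood against 13.8% of all genes called in that comparison. No other call was made between groups in this list by edgeR. Hspa1a and Hspa1b had an unadjusted P under 0.05 in HSA-LR against WT mice in the gastrocnemius and in treated against WT mice in the quadriceps. These 2 of 6 genes stood against 25.1% and 12.5% of all genes in the same comparisons. The cold-inducible Cirbp and Rbm3 agreed between the muscles of a mouse with r of 0.791 and 0.796.

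Genes whose pattern was most like that of a member were ranked by Pearson's r over the 18 libraries, centred within each muscle. For Dbp these were Eepd1 (r = 0.878), Baiap2l2 (0.871), Bpnt1 (0.871), Clec2d (0.850) and Stard3 (0.847). For Arntl they were Zfp341 (r = 0.833), Prima1 (0.833), Pdlim5 (0.828), Gm27252 (0.814) and Dhx15 (0.801). The libraries come in pairs from 9 mice, so these values describe the ranking only. Among the members themselves, Per1 was nearest to Dbp (r = 0.513) and Npas2 to Arntl (r = 0.337).

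The exon bins of the clock genes gave no call by edgeR's test of a bin against the rest of its gene. Of 175 bins of 9 clock genes in the gastrocnemius and 177 in the quadriceps, 0 were called in HSA-LR against WT mice, where 0.819% and 0.284% of all bins were called, and 0 in treated against HSA-LR mice, where 0.309% and 0.168% were. At an unadjusted P under 0.05 there were 12 and 3 clock bins in the former comparison, beside 6712 of 172719 and 2794 of 172858 bins of all genes. In the latter there were 4 and 3, beside 5219 and 2693 of all. The smallest adjusted P, 0.162, belonged to a coding bin of Clock (chr5:76262675-76262766), at a log2 FC of -1.29 in the treated against the HSA-LR gastrocnemius. That bin held 20, 13 and 15 counts in HSA-LR mice 1 to 3, 5, 5 and 6 in WT mice and 3, 5 and 1 in treated mice, a handful of reads in a gene with at least 1017 counts in each library. In the quadriceps it held 14, 18 and 6 counts in HSA-LR, 3, 25 and 9 in WT and 19, 31 and 14 in treated mice, with overlap of all groups. The next coding bins, chr5:76265791-76265939 and chr5:76266357-76266416, moved the same way in the gastrocnemius. Their log2 FC was -0.88 and -0.92 in treated against HSA-LR mice (edgeR adjusted P = 0.568 and 0.417). Against WT mice, HSA-LR mice gave 0.85 and 0.86 (edgeR adjusted P = 0.273 and 0.208), so none passed. For limma voom no share over all bins is given here, so its calls cannot be set against its rate over all bins. With limma voom, 2 noncoding bins at the 3′ end of Clock were called in both gastrocnemius comparisons. Of these, chr5:76212177-76213852 made up, in the gastrocnemius, 33.3%, 32.7% and 32.0% of the Clock counts in HSA-LR mice, 40.9%, 35.9% and 43.4% in WT mice and 40.7%, 34.4% and 48.4% in treated mice. HSA-LR mice were below all others in this share, the library of treated mouse 3 with its lower 5′ coverage was the highest, and the part of coverage in the limma voom calls was not tested. In the quadriceps the shares were 42.9%, 30.8% and 38.5% in HSA-LR, 40.8%, 26.4% and 33.3% in WT and 27.9%, 24.9% and 30.9% in treated mice, with treated mice low and the groups overlapping. In the gastrocnemius the bin had a limma voom log2 FC of -0.70 (adjusted P = 0.00113) against WT mice and 0.64 (adjusted P = 0.0104) for treated against HSA-LR mice, while edgeR gave -0.20 and 0.21, neither of which passed.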

How the data were processed

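RNA from the gastrocnemius and quadriceps of 9 mice was sequenced as stranded polyA libraries. The deposited files hold raw counts per exon bin (391858 bins), which the authors made before deposit. The submitters' processing notes name CASAVA, HISAT, featureCounts 1.5.0 and GRCm38, without roles. Bins were summed per gene, and rows naming no gene (2.82% to 4.14% of counts) were left out.

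Genes were kept by filterByExpr (minimum count 10, total 15), scaled by TMM and tested with edgeR 4.0.16 quasi-likelihood (R 4.3.3), fitting each muscle's 9 libraries together, and P was adjusted over all genes by Benjamini-Hochberg. Comparisons of the muscles used all 18 libraries. Calls were made at an adjusted P under 0.1, and SE is the log2 FC divided by the square root of F. Bins were tested with diffSpliceDGE. Agreement was tested with scipy 1.17.1. Scripts were tested on simulated data. Alternatives used DESeq2 1.42.0, limma 3.58.1, other scaling, filters and prior counts, the largest bin, the 2 groups alone, the replicate block and leaving out each mouse. Both muscles of a mouse share its number, and over all genes their deviations correlated at a median r of 0.253 (0.091 to 0.548), with 8 of 9 mice matching their own quadriceps best. Across groups the number marks different mice.

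The members and gene lists were chosen with earlier results of these data known. List genes were named when called in a group comparison, at most 8 per list by P, and the 5 most like Dbp and Arntl. Cry2 was among the genes not called, and Ciart, Bhlhe40, Hlf, Tef, Fbxw11, Fkbp5, Zbtb16, Cirbp, Rbm3, Hspa1a and Hspa1b were named after their values were seen.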

Additional observations from a re-analysis of the deposited data

How the results depend on the processing

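No result changed direction while called. In HSA-LR against WT mice, the 0 clock genes called in the gastrocnemius became 1 with the 2 groups alone (Clock) and 0 to 1 when each mouse was left out, and 0 to 1 in the quadriceps (1 without WT mouse 3). In treated against HSA-LR mice, the 1 called in the gastrocnemius became 2 with DESeq2 and with the 5′ to 3′ coverage covariate, an alternative chosen after seeing the data, and 0 to 2 when each mouse was left out. The 1 called in the quadriceps became 0 with the replicate block (Per2 adjusted P = 0.120) and 0 with the coverage covariate, and 0 to 2 when each mouse was left out. Between the muscles 0 became 2 with the mouse as a replicate block, and the replicate block changed no other count of clock genes by over 1.5 times. Exon bins of Clock went from 0 to 2 with limma voom in both gastrocnemius comparisons. Apart from the mouse as a block, no shares over all genes or bins are given here for the alternatives. The causes were not tested. The median agreement of 0.775 ran from 0.734 to 0.851 when each mouse was left out. Of 1470 single values of members, 1357 kept direction and side of the threshold, 10 lost and 12 gained a call, and 91 uncalled values turned sign. With 3 mice per group, differences well beyond the printed SE could also go uncalled. Nr1d1 in the treated against the HSA-LR gastrocnemius is a case, at -0.98 (SE 0.35, adjusted P = 0.145 by edgeR). Npas2 (17 to 82 counts) is the least precise.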
